A study of Mus musculus domesticus and Mus musculus molossinus with 8 samples.

Results

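The replication-dependent histone cluster genes were taken as every gene of the deposited tables whose symbol starts with Hist1h, Hist2h, Hist3h or Hist4h, which gave 67 of 23284 genes. They comprised 6 genes of the H1 class, 18 of H2A, 18 of H2B, 12 of H3 and 13 of H4, and no measured value entered the choice. The study sequenced RNA from the thymus and the liver of 4 mice aged 8 weeks, with both organs from the same mouse. The 4 mice were 1 MSM/Ms (MSM, Mus musculus molossinus) mouse injected intraperitoneally with 1.5 µg of MegaFasL, 1 untreated MSM mouse, 1 C57BL/6 (B6, Mus musculus domesticus) mouse injected with the same dose, and 1 untreated B6 mouse. MegaFasL is a multimeric form of Fas ligand, which triggers the death receptor Fas. No genetic modification is given for any group, and the labels do not say how long after the injection the organs were taken. Each combination of strain, treatment and tissue was 1 library, so each combination of strain and treatment rested on 1 mouse, and each strain on 2 mice that also differed in treatment.

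Core histones H2A, H2B, H3 and H4 form the nucleosome, and linker histone H1 binds the DNA between nucleosomes. The cluster genes are transcribed mainly in S phase, when newly copied DNA is packed, and most of their mRNAs end in a conserved stem-loop instead of a poly(A) tail. Thymus holds many dividing lymphocyte precursors, while most hepatocytes of an adult liver do not divide. The molecule was labelled polyA RNA, so the values describe cluster-gene transcripts that passed this selection. Some of these genes are known to make polyadenylated transcripts as well.

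The stem-loop that ends these mRNAs could be read from the reference annotation for most genes. GENCODE M21 (mm10) placed a transcript sequence in the locus of 63 of the 67 genes, 62 of them coding. For each gene only the transcript with the most bases in the locus was read. The letters GGNNC, TTTT and NANNNCC in a row, searched on the sense strand after the stop codon, were in 40 of the 62 coding transcripts (64.5%), against 74 of 22434 other protein-coding genes (0.33%) searched over any annotated transcript. In 15 of the other 22 the annotated transcript ended within 5 bases of the stop codon, so the search had no window to read, and in 7 it ran at least 20 bases further. The letters AATAAA, the usual poly(A) signal, followed the stop codon in 17 coding transcripts, 13 of them with the stem-loop and 4 without it. Hist1h2bc, Hist2h2be and Hist1h4a were among those 4. For 18 of the 40 genes the stem-loop lay outside the locus of the deposited tables, whose gene models matched the coding length in 29 cases. The stem-loop windows below are those of Hist1h1c, Hist1h4c and Hist1h4d, which were high in liver, of Hist1h2bb and Hist1h4i, which differed between the strains, and of Hist1h2ab and Hist1h3e, the highest of their class in MSM thymus, with the 16 stem-loop bases in capitals and up to 30 bases in all. The same 16 bases stood in Hist1h1c and Hist1h2ab, in Hist1h2bb and Hist1h3e, and in Hist1h4c and Hist1h4d.
Hist1h1c (chr13:23739512-23739527, plus strand): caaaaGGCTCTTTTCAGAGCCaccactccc
Hist1h2ab (chr13:23751572-23751587, plus strand): acaaaGGCTCTTTTCAGAGCCacccacatc
Hist1h2bb (chr13:23747203-23747218, plus strand): ccaaaGGCTCTTTTAAGAGCCacccacact
Hist1h3e (chr13:23561903-23561918, minus strand): aaaacGGCTCTTTTAAGAGCCacctccatt
Hist1h4c (chr13:23698089-23698104, minus strand): caaaaGGCCCTTTTCAGGGCCacccacaaa
Hist1h4d (chr13:23581950-23581965, plus strand): ccaaaGGCCCTTTTCAGGGCCactaccttc
Hist1h4i (chr13:22040966-22040981, minus strand): ttaaaGGCCCTTTTTAGGGCCaccacaaaa

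The coding sequences of a class are close to each other, which limits what the value of a single gene means. Median coding identity between pairs of genes was 96.9% in H2A, 94.8% in H2B, 97.6% in H3 and 93.9% in H4, and no pair was identical. At least 75% of the 50-base stretches of a gene's annotated sequence were also found in another gene's transcripts for 19 genes, and under 25% for 15 genes. Annotated genes outside the histone set that overlap the locus were not counted as another gene. The median share was 2.78% in H1, against 69.3% in H2A, 47.9% in H2B, 67.1% in H3 and 54.0% in H4. The following 4 H2B genes are printed because they had the opposite strain differences described further on while their coding sequences were 97.9% to 98.4% identical to that of Hist1h2bl. Over the whole coding sequence Hist1h2bn differed from Hist1h2bl at 7, Hist1h2bj at 6 and Hist1h2bm at 8. Bases 1 to 300 from the start codon are shown, with the differing bases, 5, 5 and 7 of them, in capitals.
Hist1h2bl (chr13:21715844-21716143, minus strand): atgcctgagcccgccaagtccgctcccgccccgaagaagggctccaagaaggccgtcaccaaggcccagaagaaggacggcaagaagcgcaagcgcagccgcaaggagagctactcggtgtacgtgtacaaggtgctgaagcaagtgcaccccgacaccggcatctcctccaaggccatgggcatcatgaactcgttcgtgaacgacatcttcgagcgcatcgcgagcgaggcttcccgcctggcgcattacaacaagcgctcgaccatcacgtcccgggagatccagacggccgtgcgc
Hist1h2bn (chr13:21754123-21754422, plus strand): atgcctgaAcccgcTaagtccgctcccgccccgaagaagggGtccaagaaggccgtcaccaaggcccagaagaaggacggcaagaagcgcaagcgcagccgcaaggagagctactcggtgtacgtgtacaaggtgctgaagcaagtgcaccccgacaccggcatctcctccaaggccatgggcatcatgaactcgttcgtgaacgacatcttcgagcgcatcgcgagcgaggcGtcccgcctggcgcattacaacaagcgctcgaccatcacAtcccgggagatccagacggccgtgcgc
Hist1h2bj (chr13:22043230-22043529, plus strand): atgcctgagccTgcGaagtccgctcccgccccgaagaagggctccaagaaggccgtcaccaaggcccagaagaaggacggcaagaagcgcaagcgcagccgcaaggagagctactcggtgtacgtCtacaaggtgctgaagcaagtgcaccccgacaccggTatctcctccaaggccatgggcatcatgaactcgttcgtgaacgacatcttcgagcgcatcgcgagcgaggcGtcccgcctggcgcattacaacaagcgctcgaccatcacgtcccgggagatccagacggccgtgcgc
Hist1h2bm (chr13:21722098-21722397, plus strand): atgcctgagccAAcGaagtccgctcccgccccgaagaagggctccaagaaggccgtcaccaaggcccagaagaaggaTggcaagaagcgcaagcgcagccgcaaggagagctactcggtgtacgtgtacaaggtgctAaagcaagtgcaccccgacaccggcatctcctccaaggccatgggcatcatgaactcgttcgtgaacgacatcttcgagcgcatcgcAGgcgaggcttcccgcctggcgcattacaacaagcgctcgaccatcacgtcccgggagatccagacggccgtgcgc

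Values are the authors' FPKM, fragments per length of the gene model and per amount of mapped fragments, from 1 table for the injected mice and 1 for the untreated mice, normalized separately. For 57 single-exon genes the FPKM values came out as whole multiples of 1 fragment in all 323 values above 0, within 0.05 of a whole number, which 10% of values would do by chance. On an H4 gene model that holds the coding sequence alone, 1 fragment was worth 2.58 to 3.15 FPKM in thymus libraries and 4.95 to 5.67 FPKM in liver libraries. A count of 0 therefore allows up to 7.75 to 9.46 FPKM in thymus and 14.8 to 17.0 FPKM in liver on such a gene, the level of 3 fragments, and this floor covers counting error only. The 57 genes together had 14930, 9117, 14711 and 19358 fragments in the injected MSM, untreated MSM, injected B6 and untreated B6 thymus, and 146, 275, 175 and 396 fragments in the livers of the same mice. Of the 228 liver values of these genes 115 were 0 and 25 rested on at least 10 fragments, while of the 228 thymus values 18 were 0 and 115 rested on at least 100. The interval that the authors deposited beside each value started at 0 FPKM for all 356 values above 0 of the 67 genes.

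Some library facts bear on these values. FPKM summed to 313981 to 350415 in the thymus libraries and to 634893 to 768248 in the liver libraries, with 10412 to 11833 genes at 1 FPKM or more. The untreated MSM thymus library stood apart: 10 hepatocyte markers summed to 3031 FPKM there, against 40.5 to 205 FPKM in the other thymi, and 4 airway secretory markers to 1130 FPKM, against 1.07 to 7.01 FPKM. Its 12 thymocyte markers summed to 1407 FPKM, against 2073 to 2310 FPKM in the other thymi, and all 12 were above 0 in every thymus. In the livers 7 to 11 of the 12 were above 0, and Cd1d1, which liver also expresses, made up most of the sum. The other 11 thymocyte markers summed to 4.67 FPKM in the injected MSM liver, 6.25 in the untreated MSM liver, 6.56 in the injected B6 liver and 40.01 in the untreated B6 liver. In whole-organ RNA, fewer cells of a type and less RNA per cell cannot be told apart.

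All 5 histone classes were far higher in thymus than in liver. The 67 genes summed to 15582, 10956, 15325 and 19008 FPKM in the injected MSM, untreated MSM, injected B6 and untreated B6 thymus, against 388, 451, 413 and 914 FPKM in the livers of the same mice. Within each mouse the thymus sum was 40.2, 24.3, 37.1 and 20.8 times the liver sum, in the same order of mice. The genes took 3.47% to 5.91% of all FPKM in a thymus library and 0.0505% to 0.140% in a liver library. The lowest thymus sum was 10956 FPKM, in the library that stood apart, and the highest liver sum was 914 FPKM, so the tissues did not overlap.

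The classes differed in how far the tissues were apart, and in liver a few genes made most of a class. The H2A sum was 814 to 2446 FPKM in thymus and 6.93 to 85.4 FPKM in liver. The H3 sum was 1446 to 2491 FPKM in thymus and 13.9 to 58.4 FPKM in liver. H4 had the highest sums in 3 of the 4 thymi and in all 4 livers, at 3950 to 6331 FPKM in thymus and 185 to 392 FPKM in liver. H2B had 3451 to 5758 FPKM in thymus and 125 to 276 FPKM in liver, and H1 had 1295 to 2050 FPKM in thymus and 39.0 to 102 FPKM in liver. The mean thymus-over-liver difference of the class sum was 6.38 ± 1.06 on the log2 scale for H2A, 6.29 ± 0.89 for H3, 4.88 ± 0.38 for H2B, 4.78 ± 0.84 for H1 and 4.47 ± 0.39 for H4 (SD, n = 4 mice). In liver, Hist1h2bc alone took 50.7% to 91.0% of the H2B sum, and without it and Hist2h2bb, the highest H2B gene in thymus, the H2B difference was 6.95.

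**Figure D1:**
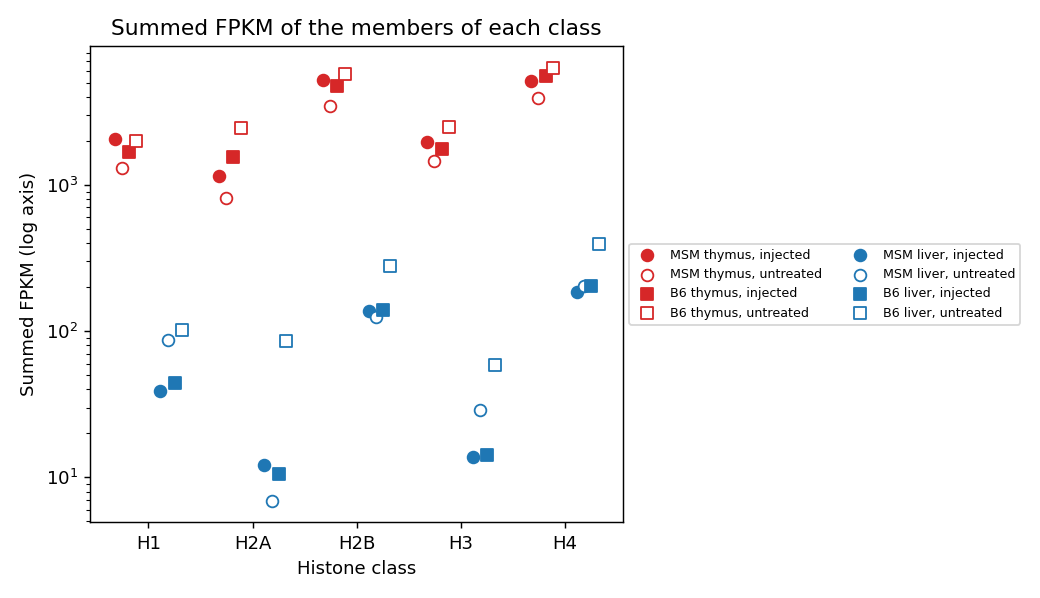
Summed FPKM of the genes of each histone class on a log axis, in thymus (red) and liver (blue), for MSM (circles) and B6 (squares), injected (filled) and untreated (open), with 1 library per point. In every class the 4 thymus points lie above the 4 liver points, and the untreated B6 liver is the highest liver point, for example 85.4 FPKM for H2A.

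Gene by gene, 57 of the 67 genes averaged at least 1 FPKM in thymus or liver and were tested, and 53 of them rose in thymus. The other 10 were left out, 6 of them H2A genes, and 6 were listed at 0 in all 8 libraries. These were Hist1h2aa, Hist1h2ad, Hist1h2ba, Hist1h4n, Hist2h2aa1 and Hist2h2aa2. Hist1h4n shares its deposited locus with Hist1h4m, and Hist2h2aa1 shares one with Hist2h2aa2, while Hist1h2ad had no 35-base stretch of its own. Limma, with the mouse as a block, called 53 of the 57 higher and 1 lower in thymus at an adjusted p under 0.05, while it called 32.1% of all 12880 tested genes higher and 28.6% lower. The members' median difference was 5.01 on the log2(FPKM + 1) scale, against 0.13 over all genes tested. For 7 genes that were at 0 in all livers the fitted value depends on the pseudocount. With those genes at the bound that 3 fragments in a liver set, the median was 4.56. Of the 67 genes, 17 more were at 0 in 3 livers and 9 in 2, so fitted values of such genes depend on the pseudocount in part. All 4 thymi lay above all 4 livers for 46 of the 57 tested members, against 29.9% of all tested genes. Of the 57, 42 also averaged at least 1 FPKM in liver. The rest were tested through their thymus level alone, so their higher thymus mean was fixed by the filter. The counts of 53 and 46 are out of all 57.

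Hist1h2bl, Hist1h3g and Hist1h4a, of the H2B, H3 and H4 classes, had with Hist1h1b the largest fitted tissue differences. That of Hist1h3g is set by the pseudocount, and those of Hist1h2bl, Hist1h4a and Hist1h1b depend on it in part, through livers at 0. Hist1h2bl had 1602, 1086, 202 and 245 FPKM in the injected MSM, untreated MSM, injected B6 and untreated B6 thymus, against 21.3 FPKM in the injected MSM liver and 0 in the other 3 livers. The injected MSM liver value rested on 6 fragments. Its difference was 7.96 ± 0.58 (SE, adjusted p = 0.000140, limma). Hist1h3g had 174, 120, 188 and 261 FPKM in the same thymi and was listed at 0 in all 4 livers. Its thymus level was at least 20.03-fold higher than the level of 3 fragments in the liver of the same mouse, in each of the 4 mice. Hist1h4a had 917, 653, 364 and 517 FPKM in the thymi, against 17.0, 0, 0 and 10.8 FPKM in the livers of the same mice, which is 3 and 2 fragments in the livers above 0. Its difference was 7.25 ± 0.71 (adjusted p = 0.000354). All 3 genes were high in every thymus and had 0 to 6 fragments in every liver, without overlap.

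The linker histones differed in how much of their thymus level they had in liver. Hist1h1a, expressed in dividing cells, had 679, 417, 618 and 658 FPKM in the thymi, against 3.503, 4.24, 3.06 and 10.1 FPKM in the livers. Hist1h1b had 502, 346, 365 and 377 FPKM in thymus and at most 7.78 FPKM in liver. Hist1h1c, a linker histone also made outside S phase, had 569, 354, 382 and 575 FPKM in thymus and kept 23.9, 64.6, 21.7 and 46.1 FPKM in liver, the highest H1 level in each liver. Its difference was 3.66 ± 0.35 (adjusted p = 0.000331), against 6.68 ± 0.28 for Hist1h1a. Hist1h1t, the testis linker histone, reached at most 2.99 FPKM in any library.

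Hist1h2bc was the exception among core histone genes, with a higher level in liver than in thymus. It had 50.04, 43.8, 80.6 and 131 FPKM in the thymi, against 83.5, 95.6, 127 and 140 FPKM in the livers of the same mice. In each of the 4 mice the liver was higher, and the difference was -0.65 ± 0.21 (adjusted p = 0.0366). With libraries rescaled to a common FPKM sum it was 0.41 (adjusted p = 0.111), so its direction flipped, while this rescaling moved the median of all genes to 0.99. The call was also lost without the mouse as a block (adjusted p = 0.132) and with the injected MSM, untreated MSM or injected B6 mouse left out (adjusted p of 0.104, 0.0870 and 0.108, limma). Hist1h2bc is 1 of the 4 coding genes whose annotated transcript had AATAAA and no stem-loop. The transcript read for Hist1h2bc has 2 exons, and any other transcripts of the gene were not read. Hist2h2be, another of these 4, had 4.91 to 6.24 FPKM in thymus and 0.69 to 1.76 FPKM in liver. The remaining genes of the 4, Hist1h4a and Hist1h2bp, were higher in thymus, with fitted differences of 7.25 and 4.27. Hist2h3c1 had 1.07 to 2.37 FPKM in thymus and 1.78 to 6.16 FPKM in liver, a difference of -0.81 ± 0.30 that did not pass (adjusted p = 0.0542).

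Hist1h4c, Hist1h4d and Hist1h4h were the 3 highest H4 genes by the mean over the 4 livers, although Hist1h4f and Hist2h4 were above Hist1h4h in the untreated B6 liver. Hist1h4c had 946, 770, 726 and 723 FPKM in thymus, against 68.0, 82.3, 79.2 and 108 FPKM in liver, where it rested on 12 to 20 fragments. Hist1h4d had 1355, 943, 1314 and 1478 FPKM in thymus, against 68.0, 72.0, 39.6 and 103 FPKM in liver. Their differences were 3.22 ± 0.22 (adjusted p = 0.000120) and 4.21 ± 0.27 (adjusted p = 9.66e-05). Hist2h2bb had the highest single value of any member, with 2655, 1693, 1461 and 1596 FPKM in thymus and 10.9, 9.94, 9.56 and 39.8 FPKM in liver. Its locus overlaps 2 other annotated genes, and the library kit as named does not mark strand, so reads of these genes cannot be told apart. The same limit holds for every H2A gene with a transcript sequence, Hist1h2ab and Hist1h2ak included. It also holds for Hist1h1e, Hist1h2be, Hist1h4b, Hist2h3b and Hist2h3c1, whose loci overlap another annotated gene as well. Hist1h3e led H3 in MSM thymus, with 757, 559, 330 and 412 FPKM in thymus and 6.10, 11.1, 2.66 and 5.84 FPKM in liver.

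**Figure D2:**
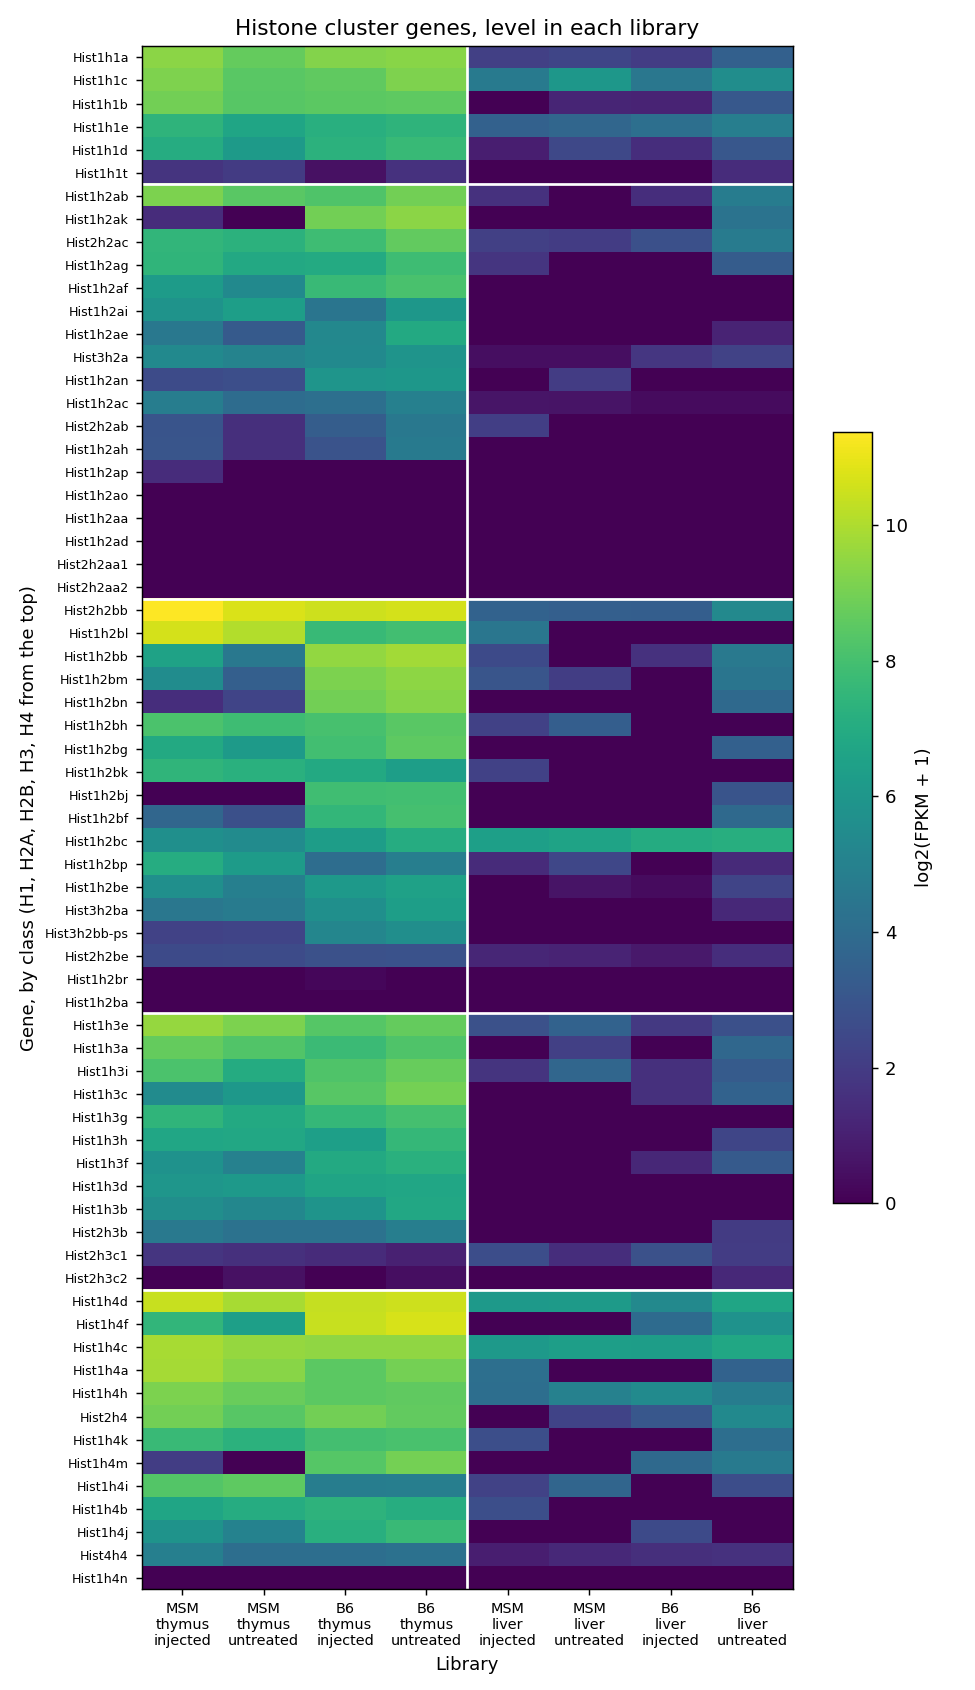
Level of each of the 67 genes as log2(FPKM + 1) in the 8 libraries, with thymus on the left, MSM before B6 and injected before untreated. Rows are ordered by class and by mean level in thymus; Hist1h2bc stays bright across liver, and rows such as Hist1h2ak, Hist1h2bn, Hist1h2bj and Hist1h4m are dark in MSM thymus and bright in B6 thymus.

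**Figure D3:**
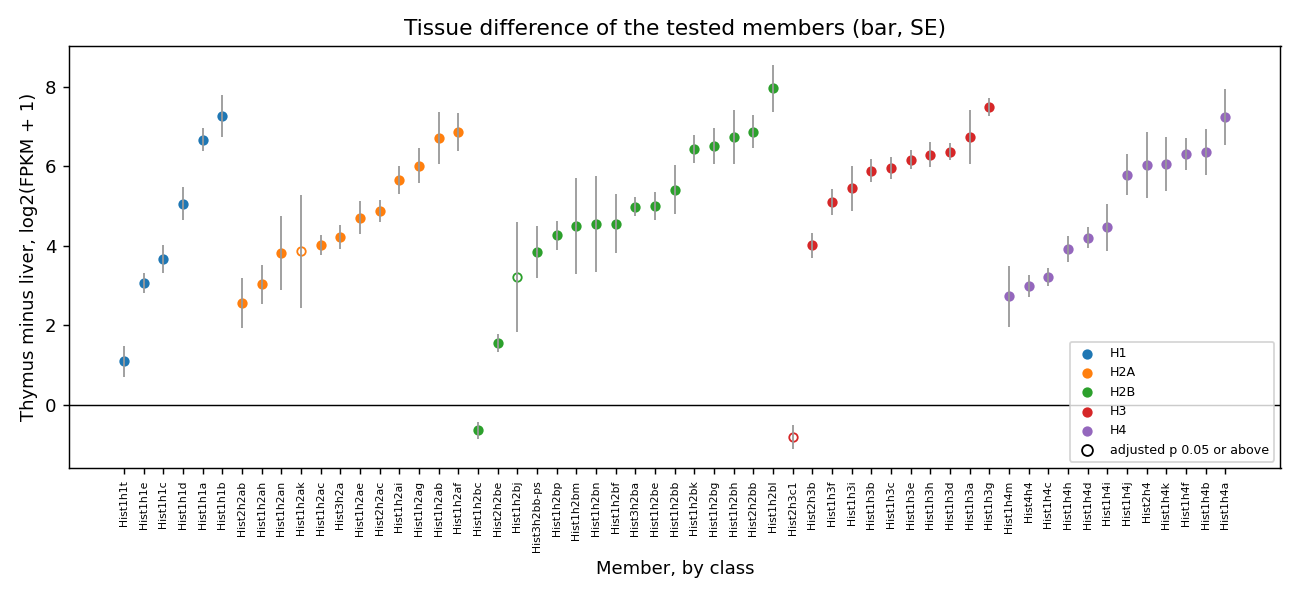
Thymus minus liver difference of the 57 tested genes on the log2(FPKM + 1) scale with its SE, grouped by class, filled where the limma adjusted p was under 0.05. Hist1h2bc at -0.65 is the only filled point under 0, and Hist1h2bl at 7.96, a size that depends in part on the pseudocount, is the highest.

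Genes that act with these histones were also higher in thymus, by less. Of all 12880 tested genes limma called 32.1% higher and 28.6% lower in thymus. In the list of DNA replication and S phase genes 27 of 29 rose and 1 fell, with a median of 2.94. Top2a, the topoisomerase of dividing cells, had 195, 133, 151 and 157 FPKM in thymus, against 1.90, 0.58, 0.33 and 3.88 FPKM in liver. Among histone chaperones 20 of 22 rose, led by Asf1b, which hands H3 and H4 dimers to assembly factors, at 3.94 ± 0.40 (adjusted p = 0.000429). Of the genes for histone mRNA 3' end processing, transcription and decay 14 of 26 rose and none fell (limma, 16 higher and 0 lower at an unadjusted p under 0.05). Slbp, the protein that binds the stem-loop, had 75.4, 65.9, 55.6 and 59.5 FPKM in thymus, against 13.4, 8.89, 12.1 and 17.9 FPKM in liver. Of the variant histones outside the clusters 7 of 10 rose and 1 fell. H2afx, the variant phosphorylated at DNA breaks, was 3.75 ± 0.20 higher (adjusted p = 7.44e-05), and H1f0, a linker histone of resting cells, was lower by -2.13 ± 0.21 (adjusted p = 0.000349). Among 75 tested RNAs that are made without a poly(A) tail, 17 rose and none fell, against 32.1% and 28.6% of all genes tested. At an unadjusted p under 0.05 (limma) 25 were higher and 1 lower. The median difference of the 75 was 2.11, against 0.13 over all genes tested. Their sum was 65686 to 106587 FPKM in thymus and 52235 to 112753 FPKM in liver, so the 2 tissues overlapped in the sum. Of the 29 S phase genes 22 also averaged at least 1 FPKM in liver, as did 18 of 22 chaperones. So did 24 of 26 processing genes, 9 of 10 variant histones and 52 of the 75 RNAs. The rest were tested through their thymus level alone, so their higher thymus mean was fixed by the filter.

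Single histone genes of 4 classes differed between the strains in thymus, in both directions. The strain comparison asked which genes differ between MSM and B6 thymus with treatment as a term, and it had 2 libraries per strain and 1 residual degree of freedom, moderated by limma across genes. Of 57 tested members 11 were lower and 2 higher in MSM (adjusted p under 0.05), against 0.594% lower and 0.379% higher of all 11610 tested genes. Of the 11, Hist1h2ak, Hist1h2bj and Hist1h4m passed the filter only through their B6 level. That fixed the direction of Hist1h2ak and Hist1h2bj and favoured that of Hist1h4m. The summed level of all members was 15582 and 10956 FPKM in the injected and untreated MSM thymus, against 15325 and 19008 FPKM in the injected and untreated B6 thymus. That is 1.02 times the B6 sum in the injected pair and 0.576 times in the untreated pair. The H2A sum in MSM thymus was 0.740 and 0.333 times that in B6 in the injected and untreated pair, and the sums of the other 4 classes were 0.581 to 1.23 times. With either B6 library left out 1 member passed, Hist1h2bj in both cases, and with either MSM library left out, the one that stood apart included, 13 or 14 did. These fits had no treatment term, unlike the main fit, and in each the lone library of a strain is taken to vary like the others. All p-values here measure the spread between mice that also differ in treatment.

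The 11 lower genes came from 4 classes, and 4 of them had 0 to 2 fragments in each MSM thymus. Hist1h2ak had 1.68 and 0 FPKM in the injected and untreated MSM thymus, which is 1 and 0 fragments, against 502 and 666 FPKM in the B6 thymi, the highest H2A level there. Its difference was -8.47 ± 0.43 (adjusted p = 0.000607). Hist1h2bj was listed at 0 in both MSM thymi, against 237 and 242 FPKM in the B6 thymi, and the B6 level was at least 40.67-fold higher than the level of 3 fragments in the MSM thymus of the same treatment. Hist1h4m had 3.17 and 0 FPKM in MSM and 335 and 512 FPKM in B6 (-7.67 ± 0.58, adjusted p = 0.00333). Hist1h2bn had 1.79 and 3.96 FPKM in MSM and 497 and 638 FPKM in B6 (-7.24 ± 0.24, adjusted p = 0.000102). In these 4 genes MSM and B6 libraries stood on different sides of a wide gap. The fitted size depends on the pseudocount: over the alternatives run it ran from -10.42 to -6.66 for Hist1h2ak, and from -11.2 to -5.61 for Hist1h2bj.

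The other 7 lower genes were above 0 in both MSM thymi. Hist1h4f, the highest H4 gene in B6 thymus, had 177 and 85.2 FPKM in MSM, against 1385 and 1656 FPKM in B6 (-3.61 ± 0.39, adjusted p = 0.0156). Hist1h2bb had 91.8 and 22.7 FPKM in MSM, against 739 and 880 FPKM in B6. Hist1h3c, the only H3 gene called, had 43.9 and 65.1 FPKM in MSM and 344 and 517 FPKM in B6 (-2.96 ± 0.24, adjusted p = 0.00501). Hist1h2bm, Hist1h2bf, Hist1h2an and the pseudogene entry Hist3h2bb-ps differed by -4.81, -4.49, -3.33 and -3.13, with adjusted p of 0.0178, 0.00496, 0.00212 and 0.00333 (limma). In the injected and untreated MSM thymus, Hist1h2bm rested on 25 and 5 fragments and Hist1h2bf on 7 and 3. Hist1h2an and Hist3h2bb-ps each rested on 3 fragments in both, the number that sets the floor.

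The 2 genes that were higher in MSM belong to the H2B and H4 classes. Hist1h2bl had 1602 and 1086 FPKM in the injected and untreated MSM thymus, against 202 and 245 FPKM in B6 (2.56 ± 0.35, adjusted p = 0.0361). Over the 12 alternatives run its difference ran from 2.28 to 2.84, and its call was lost in 6. Among the lower genes the call was lost in 6 for Hist1h2bm and 7 for Hist1h2bb, against 0 for Hist1h2bj. Hist1h4i had 316 and 375 FPKM in MSM, against 27.5 and 27.7 FPKM in B6 (3.59 ± 0.24, adjusted p = 0.00194). Hist1h2bp had 132 and 75.1 FPKM in MSM, against 15.9 and 28.1 FPKM in B6, a difference of 2.18 ± 0.39 that did not pass (adjusted p = 0.0795). The 6 lower H2B genes took 2.95% and 1.35% of the H2B sum in the MSM thymi, against 47.2% and 48.1% in B6, while Hist1h2bl took 30.5% and 31.5% in MSM and 4.25% and 4.25% in B6. These sets were chosen by the same contrast, so their shares describe the calls and do not add to them. The remaining 11 H2B genes summed to 3490 and 2319 FPKM in MSM and to 2312 and 2745 FPKM in B6.

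None of the 6 tested H1 genes passed in the strain comparison (0 under an adjusted p of 0.05, and 1, Hist1h1d, at an unadjusted p under 0.05), and their differences ran between -0.86 and 0.80. Hist1h1a had 679 and 417 FPKM in MSM and 618 and 658 FPKM in B6, and Hist1h1c had 569 and 354 FPKM in MSM and 382 and 575 FPKM in B6, so the strains overlapped. The 13 called genes had 30.05% to 89.8% of their 50-base stretches in other transcripts. Among tested members with under 25% of such stretches 0 of 14 passed (4 lower at an unadjusted p under 0.05, limma), with 25% to 75% 8 of 27 passed (7 lower, 1 higher) and with at least 75% 5 of 16 passed (4 lower, 1 higher). The reads of both strains were aligned to mm10, which is built from C57BL/6J, and the part that differences in MSM sequence or shared reads have in these values was not tested.

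The called genes lay in every Hist1 block on chromosome 13 that had tested genes, and 1 lay on chromosome 11. In the first Hist1 block (chr13:21715763-21812150) 5 of 13 tested genes were lower in MSM and 1 was higher. In the second (chr13:22035166-22043610) 1 of 5 was lower and 1 higher. In the third (chr13:23531044-23764414), which holds 29 members, 4 of 28 were lower. In the Hist2 block on chromosome 3, 0 of 7 passed, and 2 had an unadjusted p under 0.05 (limma). Hist1h2ak and Hist1h2bn start within 1 kb of each other and both were near 0 in MSM, but Hist1h2ag, the neighbour of Hist1h2bj, had 175 and 116 FPKM in MSM and 125 and 227 FPKM in B6. Neighbouring genes thus did not all show the same difference.

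**Figure D4:**
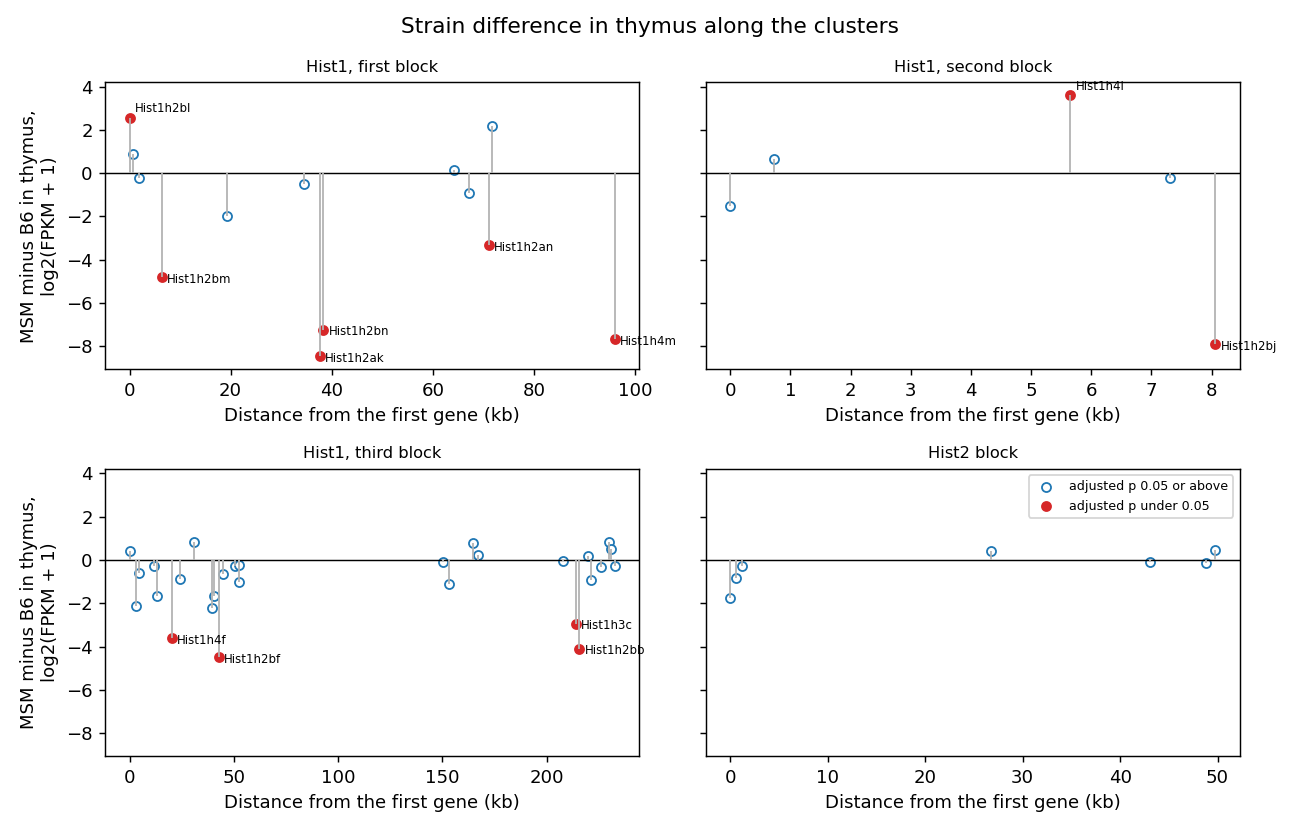
MSM minus B6 difference in thymus on the log2(FPKM + 1) scale for the tested genes, against distance in kb from the first gene of each of 4 blocks, filled red where the limma adjusted p was under 0.05. Genes far under 0, such as Hist1h2ak at -8.47 and Hist1h2bj at -7.91, both sizes that depend on the pseudocount, stand beside genes near 0, and no gene of the Hist2 block is filled.

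Between MSM and B6 thymus no gene of 4 lists that act with the histones passed (limma, adjusted p). These were 29 S phase genes, 22 chaperones, 26 processing genes and 10 variant histones, of which 2, 2, 2 and 0 had an unadjusted p under 0.05. Slbp had 75.4 and 65.9 FPKM in the injected and untreated MSM thymus, against 55.6 and 59.5 FPKM in B6. Of the RNAs without a poly(A) tail 1 of 74 was higher and 3 were lower in MSM, against 0.379% and 0.594% of all 11610 tested genes. At an unadjusted p under 0.05 (limma) 8 of them were higher and 18 lower, and their median difference was -0.45.

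In liver the strain comparison rested on few fragments. Of 42 tested members 3 were lower and none higher in MSM (limma, 10 and 4 at an unadjusted p under 0.05), against 0.957% lower and 0.510% higher of all 10971 tested genes. Hist1h4f was listed at 0 in both MSM livers, against 14.85 and 54.2 FPKM in the injected and untreated B6 liver, which is 3 and 10 fragments. Hist1h4m was at 0 in both MSM livers, against 13.7 and 24.03 FPKM in B6, which is 5 and 8 fragments, and Hist2h4 had 0 and 3.95 FPKM in MSM and 7.59 and 41.6 FPKM in B6. Their adjusted p were 0.0329, 0.0202 and 0.0256, and no member passed when any 1 liver library was left out. All 3 genes passed the filter only through their B6 level in liver. That fixed the direction of Hist1h4f and Hist1h4m in liver and favoured that of Hist2h4. Hist1h4f and Hist1h4m were lower in MSM in both tissues. Hist2h4 was not, with 493 and 344 FPKM in MSM thymus and 491.8 and 398 FPKM in B6 thymus.

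The strain difference itself was compared between the tissues, and 1 of 57 members passed, against 0.365% of all genes in either direction. With a pseudocount of 5 the count was 10. For Hist1h2ak the MSM minus B6 difference was -8.47 in thymus and -2.17 in liver, and these differed by -6.30 ± 0.65 (adjusted p = 0.0432, limma). In liver Hist1h2ak was above 0 only in the untreated B6 library, at 19.2 FPKM or 6 fragments, and the call was lost when any 1 mouse was left out. For Hist2h4, the strain difference in thymus minus that in liver was 3.00 ± 0.35 (adjusted p = 0.0556).

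After MegaFasL the histone sums moved in opposite directions in the thymi of the 2 strains, with 1 mouse per group and no test. The sum was 15582 FPKM in the injected MSM thymus against 10956 FPKM in the untreated one, 1.42 times, and 15325 FPKM in the injected B6 thymus against 19008 FPKM in the untreated one, 0.806 times. Each of the 5 classes was higher in the injected MSM thymus and lower in the injected B6 thymus than in the untreated thymus of the strain. Of 57 genes 41 were higher in MSM and lower in B6, against 26.0% of all 11610 genes. None was 2-fold higher or 2-fold lower in both strains, against 0.276% and 0.422% of all genes. The sums are as deposited, while for the counts of genes each fold change was centred on the median over all genes, since the tables were normalized separately.

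The untreated MSM thymus was the library with RNA of other tissues, and dividing by its thymocyte markers changed the MSM direction. Per FPKM of the 12 thymocyte markers, the histone sum was 7.52 in the injected MSM thymus and 7.79 in the untreated one, a ratio of 0.965. In B6 thymus it was 6.93 in the injected mouse and 8.23 in the untreated one, a ratio of 0.843. Per FPKM of the S phase list the MSM ratio was 1.12 and the B6 ratio 0.776. The B6 direction was the same on all 3 scales, and the MSM ratio lay under 1 on the thymocyte scale only. Both marker scales were chosen after the values were seen. The part that the makeup of the library has in the difference was not tested.

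**Figure D5:**
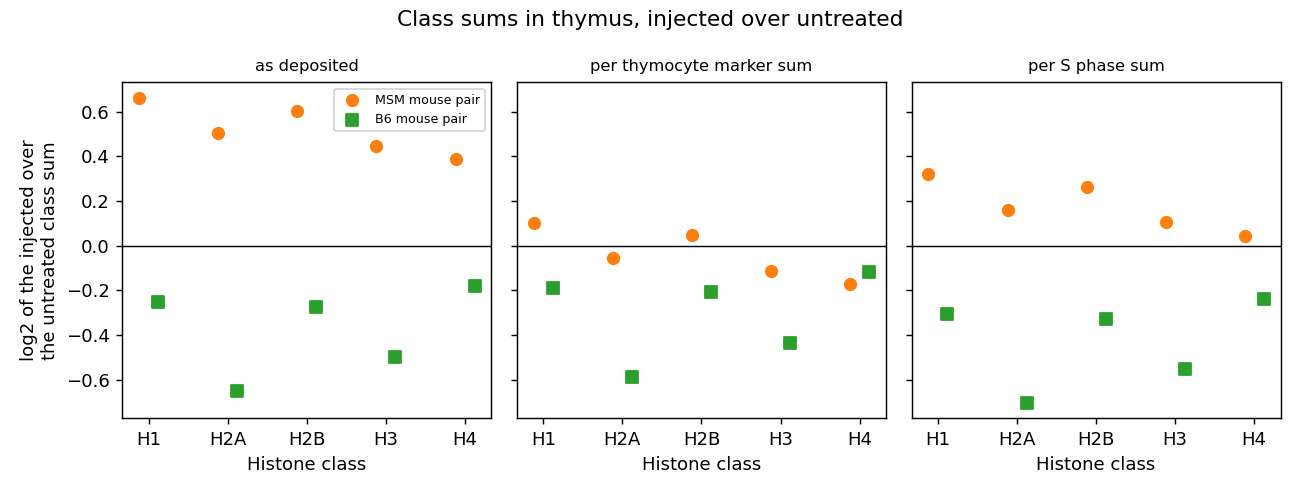
Injected over untreated class sums in thymus as log2, for the MSM pair (circles) and the B6 pair (squares), as deposited, per thymocyte marker sum and per S phase sum, with 1 mouse per treatment. As deposited all MSM points lie above 0 and all B6 points under 0; per thymocyte marker sum the MSM points lie between -0.17 and 0.10.

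In liver the untreated B6 library held the highest histone levels, and the injected one was lower. The histone sum was 388 FPKM in the injected MSM liver against 451 FPKM in the untreated one, and 413 FPKM in the injected B6 liver against 914 FPKM in the untreated one. Of 42 genes 28 were at least 2-fold lower in the injected B6 liver, against 6.19% of all 10971 genes. Of the 28, Hist1h2ak, Hist1h2bf, Hist1h2bg, Hist1h2bj, Hist1h2bn and Hist1h3h were above 0 in the untreated B6 liver only. They had 6, 4, 7, 2, 4 and 2 fragments there and passed the filter through that library alone, so their fall was fixed by the filter. With the untreated B6 liver at 0, Hist1h1b, Hist1h2ab, Hist1h2ag, Hist1h2be, Hist1h3a, Hist1h3c and Hist1h3f, also among the 28, would average under 1 FPKM. The filter thus favoured a fall in them, and Hist1h1b and Hist1h3a are among the 8 genes that follow. In 8 genes the level fell by 2-fold or more in each strain, against 1.24% of all genes. With a pseudocount of 5 none of the 8 passed this fold, and with a filter at 5 FPKM 4 members did. The 8 include the linker histones Hist1h1b, Hist1h1c and Hist1h1d. In MSM, Hist1h1b had 0 fragments in the injected liver and 1 in the untreated one, Hist1h3a 0 and 2, and Hist2h4 0 and 1, while Hist1h1c had 51 and 152. None was 2-fold higher in both, against 1.64% of all genes. Hist1h1c had 23.9 FPKM in the injected MSM liver against 64.6 FPKM in the untreated one, and 21.7 FPKM in the injected B6 liver against 46.1 FPKM in the untreated one. Hist1h2bc changed by less than 2-fold in both strains, with 83.5 FPKM in the injected MSM liver against 95.6 FPKM in the untreated one, and 127 FPKM in the injected B6 liver against 140 FPKM in the untreated one.

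The untreated B6 liver also held the most thymocyte marker RNA, with 11 of 12 markers above 0 and Ptcra at 0. Without Cd1d1 these markers stood at 1.74% of the thymus level of the same mouse, against 0.226% to 0.446% in the other mice, while the histone sum stood at 4.81% of the thymus level, against 2.49% to 4.12%. Rag1, which thymocytes use to rearrange receptor genes, had 9.88 FPKM in the untreated B6 liver, against 0.60 to 0.79 FPKM in the other livers. The part of such RNA in the histone level of this liver was not tested. The injected minus untreated change was also compared between the tissues, and 0 of 57 members passed, against 0.0388% of all genes in either direction. At an unadjusted p under 0.05 (limma) the change was higher in thymus than in liver for 15 members and lower for 0. Of all 12880 tested genes 974 reached that p in either direction.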

How the data were processed

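Polyadenylated RNA of 8 libraries (thymus and liver of 4 mice) was prepared with a TruSeq RNA kit, per the labels' protocols. Per the submitters' processing notes, reads were aligned with TopHat to mm10 and levels came from Cuffdiff 2.2.1. The authors deposited gene FPKM with intervals in 2 tables, injected and untreated, normalized separately. The gene annotation behind the tables is not given in the sources used here, nor are run settings.

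Comparisons between tissues kept genes averaging at least 1 FPKM in either tissue. Comparisons within a tissue kept genes averaging at least 1 FPKM over its 4 libraries. Kept genes were tested on log2(FPKM + 1) with limma 3.58.1 (R 4.3.3, trended moderation, Benjamini-Hochberg adjustment over all genes tested, threshold 0.05). Thymus minus liver had the mouse as a block and MSM minus B6 had treatment as a term. The strain and injection differences between tissues were tested on the thymus minus liver ratio of each mouse. The fits were tested on simulated data. Injected against untreated rests on 1 library per group and separately normalized tables, so it has no test. The mouse pairs the tissues by the design, and deviations of both tissues from their means correlated at 0.056 to 0.254 over 9701 genes. Fragments were recovered with Cuffdiff's length correction (normal, mean 200, SD 80). Deposited starts were converted to count from 1. Sequences are GENCODE M21 transcripts on mm10.

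Members and lists were chosen with earlier results of these data known. Named members were the 3 markers, the highest of each class in each tissue, those past the threshold between strains and the largest strain differences of each class. Hist2h2be, Hist2h3c1, Hist1h4h and Hist1h2ag were chosen after their values were seen. Of the context lists, H3f3c, Supt16 and Rn7sk had no matching symbol. Other pseudocounts, filters, scalings, moderation and designs and leaving out each library or mouse were tried. Fits of strain or injection differences that left out a library or mouse carried no covariate.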

Additional observations from a re-analysis of the deposited data

Results flagged for a closer look

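Hist1h2ak was singled out because its MSM minus B6 difference was not the same in both tissues, by -6.30 on the log2(FPKM + 1) scale (thymus minus liver, adjusted p = 0.0432, limma). It was lower in MSM in both mouse pairs in thymus, and in liver it was above 0 in 1 library only.

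The summed FPKM of each class in thymus was singled out because the injected over untreated change had opposite signs in the strains. This difference between strains was not tested, since each group is 1 mouse. On the log2 scale the H1 sum changed by 0.66 in MSM and -0.25 in B6, the H2A sum by 0.50 in MSM and -0.65 in B6, and the H2B sum by 0.60 in MSM and -0.27 in B6. The H3 sum changed by 0.45 in MSM and -0.50 in B6, the H4 sum by 0.39 in MSM and -0.18 in B6, and all members together by 0.51 in MSM and -0.31 in B6. In liver the H2A sum changed by 0.80 in MSM and -3.03 in B6, and the H2B sum by 0.14 in MSM and -0.99 in B6, also untested. For the 14 H2A genes with recovered fragments, the H2A sum in the MSM livers rested on 7 and 5 fragments in the injected and untreated mouse.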

How the results depend on the processing

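The thymus minus liver calls of 54 members stayed within 1.5 times under every alternative run, with 49 to 55 members called when 1 mouse was left out. Without the replicate block, that is without pairing the tissues by mouse, 50 members were called, all higher. MSM minus B6 in thymus called 13 members, against 20 with a pseudocount of 0.1, 8 with limma without trend and 1 to 14 with 1 library left out. In liver it called 3, against 1 with a pseudocount of 5, 0 with limma without trend (13 at an unadjusted p under 0.05) and 0 with any 1 library left out (5 to 21 at an unadjusted p under 0.05, limma). The strain difference between tissues had 1 call, against 10 with a pseudocount of 5 and 0 (13 to 22 at an unadjusted p under 0.05, limma) with a pseudocount of 0.1, no filter, a filter at 5 FPKM, median-ratio centring, no trend, no covariate or 1 mouse left out. The 8 members 2-fold lower in both livers after injection were 0 with a pseudocount of 5 and 4 with a filter at 5 FPKM. Rescaling to a common FPKM sum moved the class-sum difference, thymus over liver, to 5.85 for H1, 7.45 for H2A, 5.95 for H2B, 7.37 for H3, 5.54 for H4 and 5.95 for all. Leaving out the highest genes gave 6.95 for H2B and 5.31 for H4. Hist1h2bc reversed to 0.41 under that rescaling. Per thymocyte marker sum, added after seeing the data, the injected over untreated log2 change in MSM thymus reversed to -0.056 for H2A, -0.11 for H3, -0.17 for H4 and -0.051 for all. Leaving out 1 library, the uncalled MSM minus B6 differences in thymus ran from -0.61 to 0.091 for Hist1h1a, -0.10 to 0.44 for Hist1h1b, -0.40 to 0.28 for Hist1h1c, -0.17 to 0.55 for Hist1h2ab and -0.36 to 0.16 for Hist2h4. In liver they ran from -0.39 to 1.01 for Hist1h1c and -1.78 to 2.39 for Hist1h4a. The cause of these changes was not tested.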
